A study of Mus musculus with 8 samples.

Results

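Terminally differentiated tumour-specific CD8+ T cells of mice lacking Cd69 were compared with the same subset of wild-type mice. The comparison took every library titled for the subset "term diff", which makes 4 of the 8 libraries in the series. They were 2 libraries of genotype Cd69-/- and 2 of wild type, all from BALB/c mice. Each library held CD8+ T cells that bound the AH1 tetramer, a reagent that stains T cells specific for the AH1 peptide of an endogenous retroviral envelope protein found in BALB/c tumours. The cells were sorted live, total RNA was turned into libraries with a low-input stranded kit, and single-end reads of 76 cycles were taken. The other 4 libraries of the series came from the "stem-like" subset of the same 2 genotypes and were used here to share the estimate of the spread and for one comparison at the end. Nothing in the labels names the tumour, the gates, the mice used (how many, of which sex) or how the Cd69 allele was made and bred. The labels are also silent on whether the 2 libraries of a group came from different mice, so the p-values measure the spread between these libraries, which may be technical. Gene levels were the deposited FPKM (fragments per kilobase of transcript, scaled to the mapped fragments of the library). A gene entered the test if 2 or more of the 8 libraries held it at 1 FPKM or above, which left 9782 genes.

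Cd69 encodes a type II C-type lectin-like membrane protein that appears soon after T cell activation and is also kept on resident T cells in tissue. It binds the sphingosine-1-phosphate receptor S1PR1 and brings about its internalization, which holds T cells back from leaving a tissue or lymph node. In tumours and chronic infection, CD8+ T cells under lasting antigen pass from a stem-like state marked by the factor TCF-1 (gene Tcf7) to a terminally differentiated state that carries inhibitory receptors such as TIM-3 (Havcr2), PD-1 (Pdcd1) and CD39 (Entpd1). Terminally differentiated cells make granzymes and perforin but divide and persist poorly.

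Depth was estimated from the confidence interval that stands beside each FPKM, since the width of that interval falls as the number of fragments grows. It came to between 2055014 and 2588964 fragments in the 4 libraries. Between 8911 and 9083 rows reached 1 FPKM in each. Small RNA genes took 83.9% and 84.0% of the summed FPKM in the knockout libraries, but 78.9% and 55.01% in the wild-type libraries, so wild-type library 2 stood apart on that measure. In the stem-like subset too, wild-type library 2 was the lowest, at 62.4%, with the others between 77.1% and 83.9%. Whether the 2 wild-type libraries of that number shared a preparation is not in the labels. Pearson's correlation of log2(FPKM + 1) across genes between the 2 libraries of a group was 0.933 in wild type and 0.952 in knockout. The subset's labels were checked against its markers. Tcf7 lay between 0.228 and 0.755 FPKM in the 4 term diff libraries and between 40.6 and 64.2 FPKM in the 4 stem-like ones. Havcr2 lay between 23.4 and 39.8 FPKM in term diff and between 0.847 and 2.29 FPKM in stem-like. Both markers put the 4 libraries on the side that their label names.

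The targeted gene was low but not absent in the knockout libraries. Cd69 (chr6:129267325-129275369, mm10, the interval the files give for the gene) stood at 10.4 and 12.9 FPKM in wild-type libraries 1 and 2, from about 133 and 166 fragments. It stood at 2.21 and 2.43 FPKM in knockout libraries 1 and 2, from about 27 fragments in each. Both knockout libraries were below both wild-type libraries and the groups did not overlap. On the scale log2(FPKM + 1) the difference, knockout minus wild type, was -1.93 ± 0.17 (SE, n = 2 libraries a group), with an adjusted p of 0.00956 (limma, 2-sided, Benjamini-Hochberg over all genes tested). Without wild-type library 2 its adjusted p was 0.0547, without knockout library 1 it was 0.0779 and without knockout library 2 it was 0.0886, with differences from -2.07 to -1.78 over the libraries left out in turn. The gene-level value does not show which exons the fragments came from. S1pr1, the receptor that CD69 binds, lay under the level limit in these cells, at 0.196 and 0.233 FPKM in wild type and 0.0410 and 0.180 FPKM in knockout. It was therefore not tested.

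The genes that passed the threshold with Cd69 included effector, receptor and membrane genes of lymphocytes. In all, 19 of the 9782 genes (0.194%) had an adjusted p under 0.05: 11 were higher in knockout (0.112%) and 8 were lower (0.0818%). Among the higher genes were Gzmd, a granzyme, Klrc2, an NKG2 receptor chain, Anxa1, an annexin, and Ifitm3, an interferon-induced membrane protein. Among the lower ones were Klra3, a receptor of the Ly49 family, Tmprss6, a membrane serine protease, and Pkp4, a plakophilin of cell junctions. The sizes ran from 0.88 to 2.50 on the log2(FPKM + 1) scale, a scale that understates the change of low genes. At an unadjusted p under 0.05 there were 1481 genes (15.1%), of which 612 were higher and 869 lower. The 2 knockout libraries lay entirely above the wild-type ones in 19.7% of all genes tested and entirely below them in 28.1%, so a lack of overlap with 2 libraries a group was common. An exact permutation test of 2 libraries against 2 cannot go below p = 0.333, and the calls therefore rest on the spread pooled over genes.

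**Figure D1:**
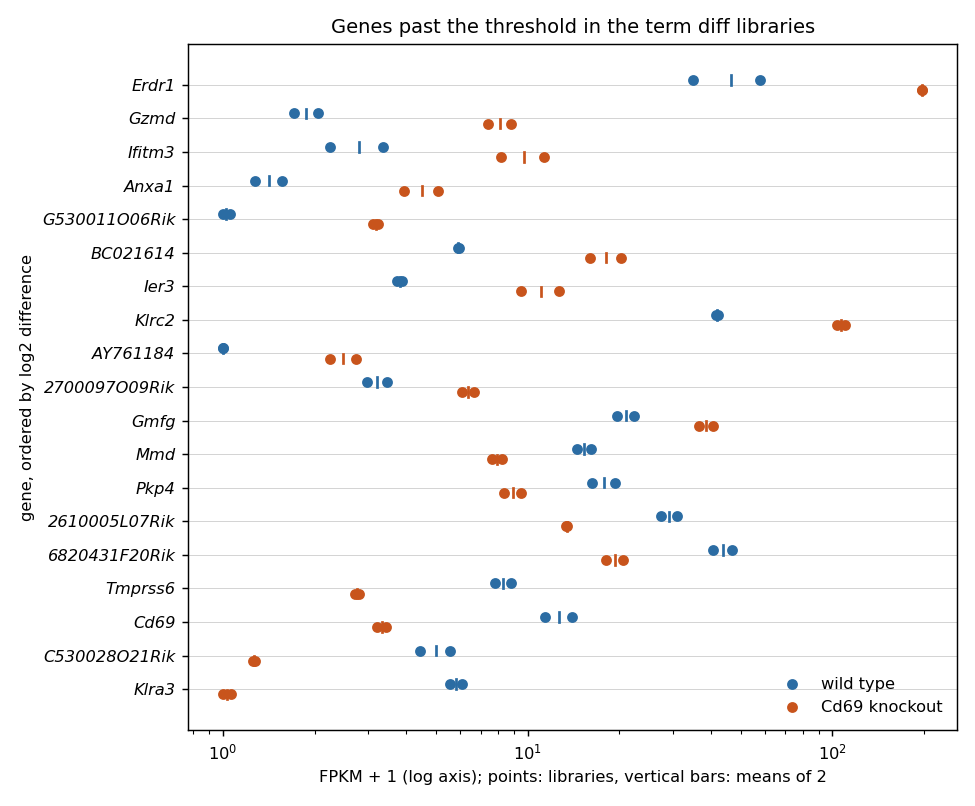
Level of the 19 genes past the threshold in each of the 4 term diff libraries, as FPKM + 1 on a log axis, with the genes ordered by their log2 difference. Points are libraries and short vertical bars are the means of 2. In each gene the 2 knockout libraries lie on one side of the 2 wild-type libraries, with Erdr1 at the top and Klra3 at the bottom.

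Calls depended on single libraries. Klra3 alone kept an adjusted p under 0.05 whichever of the 4 libraries was left out (0.00284 to 0.0155), with the lone library of a group then assumed to vary like the other groups. In the other called genes the highest of the 4 adjusted p-values lay between 0.0729 and 0.328. Of the 19 calls, 7 were kept without wild-type library 1, 3 without wild-type library 2, 1 without knockout library 1 and 1 without knockout library 2. Fitted on the 4 term diff libraries alone, 18 genes were called with limma, 12 of the 19 among them. Calls, those of Klrc2 and Anxa1 among them, were also lost when either knockout stem-like library was left out. That subset enters only the estimate of the spread. The sign of the difference turned in 0 of the 19 genes under any alternative that was run. In all 19 the groups did not overlap, so leaving out a library could not turn a sign.

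Gzmd, a granzyme of low level in these cells, was higher in knockout, and the main killing genes had differences of the same sign that did not pass the test. Granzymes are serine proteases of cytotoxic granules, and the genes Gzmd, Gzme, Gzmf and Gzmg lie in one cluster with Gzmb on chromosome 14. Gzmd was at 0.705 and 1.05 FPKM in wild type and at 6.40 and 7.83 FPKM in knockout. It rose by 2.11 ± 0.24 on the log2 scale (SE, n = 2 a group, adjusted p = 0.0256 with limma), from about 3 and 7 fragments to about 39 and 44. The Gzmd call was lost whichever of the 4 libraries was left out, with adjusted p from 0.0752 to 0.219 and differences from 1.98 to 2.24. Gzme, named after its values were seen like all members of a list given below beside a called one, was at 0.128 and 1.07 FPKM in wild type and at 4.40 and 3.96 FPKM in knockout (adjusted p = 0.0623). Gzmf was at 3.98 and 4.51 FPKM in wild type and at 7.31 and 8.95 FPKM in knockout (adjusted p = 0.117). Summed over Gzmd, Gzme, Gzmf and Gzmg, the 4 genes stood at 4.86 and 6.63 FPKM in wild type and at 18.6 and 21.4 FPKM in knockout, with no overlap.

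The copies in this cluster are close in sequence, which bears on which row a read of 76 bases lands in. The central 76 bases of the Gzmd coding sequence and the best match in the other genes are shown to make this visible, with capitals where a copy differs from Gzmd. All are read 5′ to 3′ from GENCODE M21 transcripts on GRCm38, minus strand, and each window spans an intron in the genome (Gzmd chr14:56130399-56130660, Gzme chr14:56118450-56118711, Gzmf chr14:56206116-56206383).
Gzmd: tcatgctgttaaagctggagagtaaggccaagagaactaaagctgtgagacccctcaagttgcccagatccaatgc
Gzme: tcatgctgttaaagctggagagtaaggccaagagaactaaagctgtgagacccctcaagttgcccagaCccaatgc
Gzmf: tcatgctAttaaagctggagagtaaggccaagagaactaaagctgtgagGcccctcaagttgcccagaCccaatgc
In this window Gzme differed from Gzmd at 1 base (98.7% identity) and Gzmf at 3 (96.1%). Over the whole transcript, 5.4% of the 76-base windows of Gzmd also occurred in another gene, either Gzmg or Gzme, and 0 of the windows of Gzmf did. How the authors' counting split such reads is not given in the sources used here, so the Gzmd and Gzme values are less certain than their sum.

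No other cytotoxic gene passed the test, and most but not all had a difference above 0. Gzmb, the main killing granzyme, was at 285 and 273 FPKM in wild type and at 440 and 358 FPKM in knockout, a difference of 0.51 ± 0.17 (adjusted p = 0.257). The Gzmb difference was -0.18 after quantile normalization, so its direction depended on the scaling. Prf1, perforin, was at 77.9 and 81.8 FPKM in wild type and at 109 and 103 FPKM in knockout (adjusted p = 0.319). Nkg7, a granule membrane protein, was at 118 and 107 FPKM in wild type and at 198 and 162 FPKM in knockout (adjusted p = 0.179). Ifng, interferon gamma, was at 67.6 and 78.5 FPKM in wild type and at 118 and 98.5 FPKM in knockout (adjusted p = 0.205). In each of these the groups did not overlap. The lowest difference in the list was -0.83. Of the 25 tested genes of the cytotoxic list, 1 rose (Gzmd) and 0 fell (11 higher and 1 lower at an unadjusted p under 0.05), 20 had a difference above 0, and the median was 0.25. Over all genes tested, 15.1% had an unadjusted p under 0.05, 42% had a difference above 0 and the median was -0.05.

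NK lectin-like receptors, a family encoded beside Cd69 on chromosome 6, moved in both directions. CD8+ T cells under lasting stimulation can carry these receptors, which pair the common chain CD94 (Klrd1) with an NKG2 chain (Klrc1, Klrc2, Klrc3) or act alone (Klrk1, the activating receptor NKG2D). Klrc2 was at 40.5 and 41.2 FPKM in wild type and at 109 and 102 FPKM in knockout. The 2 genotypes were well apart in Klrc2, with a difference of 1.35 ± 0.16 (adjusted p = 0.0272). The call was lost whichever of the 4 libraries was left out (adjusted p 0.0778 to 0.219, differences 1.31 to 1.40) and after quantile normalization (1.13, adjusted p = 0.0832). Klrc1, the inhibitory chain NKG2A, was at 56.7 and 52.6 FPKM in wild type and at 144 and 101 FPKM in knockout (adjusted p = 0.101). Klrd1 was at 34.6 and 30.0 FPKM in wild type and at 73.6 and 64.7 FPKM in knockout (adjusted p = 0.0865). Klrk1 was at 37.97 and 36.8 FPKM in wild type and at 59.1 and 52.0 FPKM in knockout (adjusted p = 0.163). Klrc3 lay the other way, at 47.7 and 35.2 FPKM in wild type and at 23.6 and 17.6 FPKM in knockout (adjusted p = 0.163).

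Because the Klrc genes resemble each other, the central coding window of Klrc2 is set beside its best match in Klrc3 and Klrc1. Capitals again mark bases that differ from the first gene. The windows lie on the minus strand of GRCm38 and span introns (Klrc2 chr6:129658769-129659331, Klrc3 chr6:129641499-129642712, Klrc1 chr6:129677250-129677767).
Klrc2: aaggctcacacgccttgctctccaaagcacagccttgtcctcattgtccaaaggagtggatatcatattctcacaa
Klrc3: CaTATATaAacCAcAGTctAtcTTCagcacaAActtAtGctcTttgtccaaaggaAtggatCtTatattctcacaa
Klrc1: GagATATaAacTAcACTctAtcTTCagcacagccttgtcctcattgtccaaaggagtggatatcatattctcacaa
Klrc3 differed from Klrc2 at 24 of these bases and Klrc1 at 15, with the last stretch shared between Klrc1 and Klrc2. Over whole transcripts, 20.5% of the 76-base windows of Klrc2, 26.2% of Klrc1 and 28.4% of Klrc3 also occurred in another gene of the 3, so a part of each value cannot be assigned with certainty. Summed over Klrc2 and Klrc3, the level was 88.2 and 76.5 FPKM in wild type and 133 and 120 FPKM in knockout. Summed over all 3 genes it was 145 and 129 FPKM in wild type and 277 and 221 FPKM in knockout, again without overlap.

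Klra3 fell further than any other gene past the threshold. It was at 4.57 and 5.07 FPKM in wild type, from about 45 and 49 fragments, and at 0 and 0.0586 FPKM in knockout. The difference was -2.50 ± 0.15 (adjusted p = 0.00116 with limma). Klra3 encodes a Ly49 receptor for class I molecules, normally a marker of NK cells and of some memory CD8+ T cells. The reference genome mm10 comes from C57BL/6 mice, BALB/c mice carry another set of Klra genes, and 6.45% of the 76-base windows of Klra3 also occurred in Klra10, Klra9 or Klra11-ps, so the row may hold reads of related genes. Klra7, a neighbour in the family, was at 1.06 and 1.48 FPKM in wild type and at 0.691 and 0.304 FPKM in knockout (adjusted p = 0.251). Klra1 was at 0.0757 and 0.300 FPKM in wild type and at 2.49 and 0.958 FPKM in knockout (adjusted p = 0.179). Of the 13 tested NK lectin-like receptor genes, 1 rose and 1 fell (0.194% of all genes were called), and 7 had a difference above 0, beside 42% of all genes. At an unadjusted p under 0.05, 7 were higher and 5 lower, beside 15.1% of all genes in either direction.

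**Figure D2:**
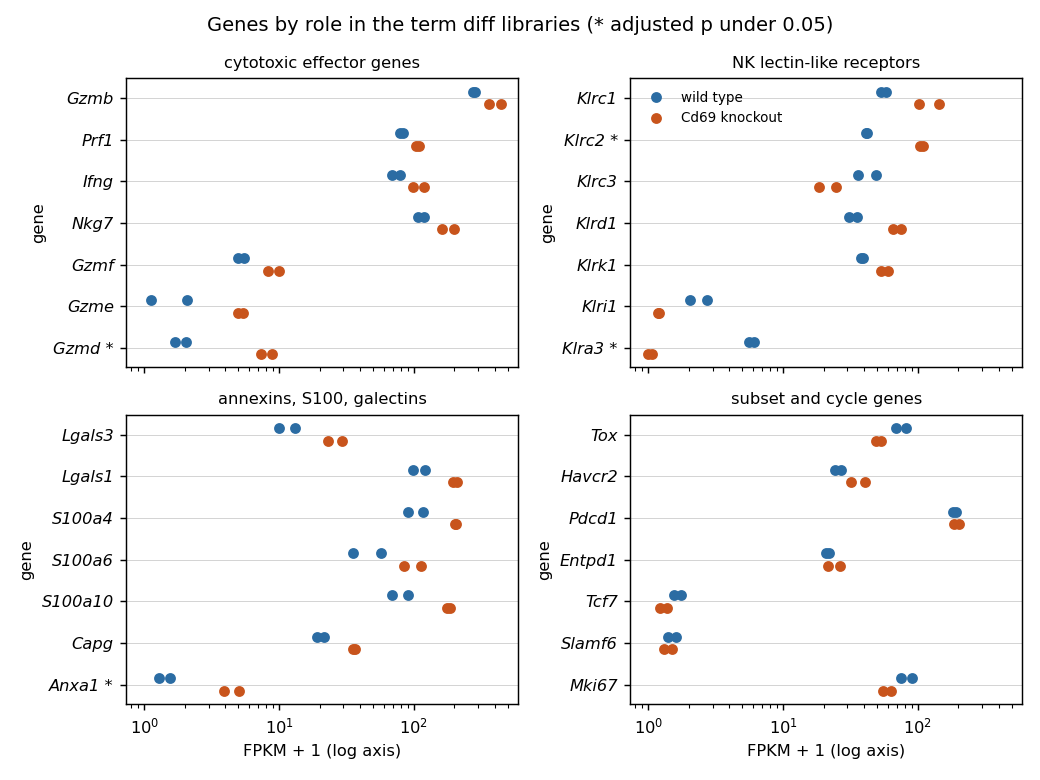
Level of 28 genes in 4 role groups in each of the 4 term diff libraries, as FPKM + 1 on a log axis, with wild type in blue, knockout in orange and a star at genes past the threshold. The rarer granzymes, Klrc2, Klrc1 and Klrd1, and the annexin and S100 genes lie to the right in knockout, while Klra3, Klrc3 and Tox lie to the left and Pdcd1 overlaps.

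Annexin, S100 and galectin genes stood higher in knockout almost throughout their list. These encode calcium-dependent membrane and cytoskeletal proteins and glycan-binding lectins that are abundant in effector and motile T cells. Anxa1, annexin A1, was at 0.558 and 0.276 FPKM in wild type and at 2.92 and 4.07 FPKM in knockout. It rose by 1.66 ± 0.21 (adjusted p = 0.0335), and with each of the 4 libraries left out in turn its adjusted p lay between 0.0668 and 0.284. The Anxa1 call was also lost after quantile normalization (adjusted p = 0.0679 with limma) and in another rescaling (0.0640), and kept in the last (0.0389). Lgals3, galectin-3, was at 12.2 and 8.97 FPKM in wild type and at 28.4 and 22.0 FPKM in knockout (adjusted p = 0.0727). S100a10, the partner of annexin A2, was at 89.9 and 67.4 FPKM in wild type and at 177 and 184 FPKM in knockout (adjusted p = 0.102). Lgals1, galectin-1, was at 121 and 97.3 FPKM in wild type and at 194 and 207 FPKM in knockout (adjusted p = 0.163). S100a4 was at 116 and 89.2 FPKM in wild type and at 200 and 205 FPKM in knockout (adjusted p = 0.185), and the groups overlapped in none of these 4 genes. Capg, an actin-capping protein, was at 18.1 and 20.6 FPKM in wild type and at 35.6 and 34.2 FPKM in knockout (adjusted p = 0.0916). Of the 18 genes of this list, all tested, 1 rose, 0 fell, 17 had a difference above 0 and in 15 both knockout libraries were above both wild-type ones, beside 42% and 19.7% of all genes. The median was 0.58, and 0.47 once the trend with transcript length described below was removed. Genes of the lowest length quartile, which holds this list's median length, had a median of 0.14 and 66.7% above 0.

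IFITM genes, small membrane proteins induced by interferon that restrict virus entry, lay on the same side in the 3 copies given here. Ifitm3 was at 1.25 and 2.35 FPKM in wild type and at 7.17 and 10.3 FPKM in knockout. It rose by 1.81 ± 0.24 (adjusted p = 0.0413), a call lost in all 3 rescalings run (adjusted p 0.0589 to 0.0736) and with each of the 4 libraries left out in turn (0.0667 to 0.284). With the length trend removed the Ifitm3 difference was 1.53 (adjusted p = 0.0785). Ifitm1 was at 0.234 and 0.116 FPKM in wild type and at 4.66 and 9.45 FPKM in knockout (adjusted p = 0.0563). Ifitm2 was at 1.05 and 0.259 FPKM in wild type and at 4.24 and 8.74 FPKM in knockout (adjusted p = 0.0681), and 41.7% of its 76-base windows occurred in gene models of other loci. Their sum was 2.53 and 2.72 FPKM in wild type and 16.1 and 28.5 FPKM in knockout. The wider interferon-response list had 0 of 35 tested genes past the limma threshold. At an unadjusted p under 0.05, 4 were higher and 1 lower, beside 15.1% of all genes. Of the 35, 25 had a difference above 0, beside 42% of all genes. The list's median was 0.12, and -0.03 without wild-type library 2.

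The other higher genes were of mixed role. Ier3, an early response gene of stress and growth signals, was at 2.87 and 2.72 FPKM in wild type and at 8.49 and 11.7 FPKM in knockout (1.53 ± 0.21, adjusted p = 0.0420). The Ier3 call was lost after quantile normalization (adjusted p = 0.0832 with limma) and in another rescaling (0.0677), and kept in the last (0.0495). Gmfg, a regulator of actin branching in leukocytes, was at 21.3 and 18.6 FPKM in wild type and at 35.4 and 39.5 FPKM in knockout (0.88 ± 0.12, adjusted p = 0.0420), and 33.9% of its windows also occurred in its pseudogene. With the length trend removed the Gmfg difference was 0.58 (adjusted p = 0.101). Its call was also lost in all 3 rescalings run (adjusted p 0.0640 to 0.0832). Erdr1, a pseudoautosomal gene, was at 33.9 and 56.9 FPKM in wild type and at 196 and 196 FPKM in knockout (2.13 ± 0.26, adjusted p = 0.0272). Of these 3 genes, Erdr1 had the widest gap between the genotypes and also the widest spread within wild type. BC021614 was at 4.94 and 4.89 FPKM in wild type and at 14.99 and 19.2 FPKM in knockout (1.60 ± 0.17, adjusted p = 0.0172). The gene models G530011O06Rik, on chromosome X, and 2700097O09Rik were also called, the first at 0.0509 and 0 FPKM in wild type against 2.23 and 2.11 FPKM in knockout. The second, 2700097O09Rik, was at 1.97 and 2.46 FPKM in wild type and at 5.65 and 5.09 FPKM in knockout (adjusted p = 0.0420). With the length trend removed its adjusted p was 0.0785, and that of AY761184, also called, was 0.454. AY761184 was listed at 0 in both wild-type libraries and stood at 1.24 and 1.72 FPKM in knockout, from about 2 and 4 fragments, which is at the limit of what this depth can show.

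Besides Klra3 and Cd69, 6 genes fell, and they were of mixed role. Tmprss6, a protease known from iron control in the liver, was at 6.82 and 7.82 FPKM in wild type and at 1.70 and 1.79 FPKM in knockout. It fell by 1.60 on the log2 scale, with an SE of 0.13 (adjusted p = 0.00837), and the call was lost without either knockout library (adjusted p up to 0.0729). Pkp4, plakophilin-4, was at 15.3 and 18.3 FPKM in wild type and at 7.38 and 8.52 FPKM in knockout (-0.99 ± 0.14, adjusted p = 0.0420). The Pkp4 call was lost in all 3 rescalings run (adjusted p 0.0608 to 0.0832). Mmd, a membrane protein of the progestin and adipoQ receptor family, was at 13.6 and 15.1 FPKM in wild type and at 7.25 and 6.64 FPKM in knockout (-0.95 ± 0.13, adjusted p = 0.0420). The Mmd call was lost after quantile normalization (adjusted p = 0.0514 with limma) and kept in the other rescalings run. Of its 76-base windows, 23.1% also occurred in another gene. A pair of neighbouring gene models on chromosome 8 fell together. Of these, 2610005L07Rik was at 26.3 and 29.9 FPKM in wild type and at 12.4 and 12.5 FPKM in knockout (-1.11 ± 0.12, adjusted p = 0.0172). Its neighbour 6820431F20Rik was at 39.4 and 46.0 FPKM in wild type and at 19.5 and 17.1 FPKM in knockout (-1.18 ± 0.14, adjusted p = 0.0272). The pair shares sequence, since 25.0% of the 76-base windows of 2610005L07Rik and 16.6% of those of 6820431F20Rik occurred in another gene, so the rows are not independent. C530028O21Rik, now named Pianp, was at 3.43 and 4.56 FPKM in wild type and at 0.250 and 0.275 FPKM in knockout (-1.97 ± 0.22, adjusted p = 0.0215).

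Genes with the next smallest p are given as values only. Mrc2, a collagen-binding endocytic receptor, was at 6.51 and 12.9 FPKM in wild type and at 2.15 and 2.46 FPKM in knockout (adjusted p = 0.0642). AA467197 was at 2.03 and 1.01 FPKM in wild type and at 8.76 and 5.85 FPKM in knockout (adjusted p = 0.0626). Lyar, a nucleolar protein, was at 16.5 and 18.8 FPKM in wild type and at 10.6 and 10.8 FPKM in knockout (adjusted p = 0.0829). Mrc2, AA467197 and Lyar were picked on the condition that the groups did not overlap. Il7r, the interleukin-7 receptor of long-lived T cells, was at 1.74 and 1.57 FPKM in wild type and at 5.59 and 4.08 FPKM in knockout (adjusted p = 0.0894). Ikzf2, the transcription factor Helios, was at 3.69 and 5.31 FPKM in wild type and at 2.01 and 1.69 FPKM in knockout (adjusted p = 0.0896). Slc2a3, a glucose transporter, was at 8.31 and 9.81 FPKM in wild type and at 15.7 and 15.4 FPKM in knockout (adjusted p = 0.0916). Il7r, Ikzf2 and Slc2a3, taken for a small p in their lists, also had groups that did not overlap. So did 47.8% of all genes tested. Spp1, the secreted phosphoprotein osteopontin, was at 37.6 and 49.1 FPKM in wild type and at 106 ± 8.6 FPKM in knockout (mean ± SD, n = 2, adjusted p = 0.117), and the groups did not overlap.

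Genes that define the exhausted state did not pass the test in either direction. Tox, a transcription factor of that state, was at 67.6 and 81.4 FPKM in wild type and at 52.3 and 48.2 FPKM in knockout, a difference of -0.55 ± 0.16 (adjusted p = 0.225). Havcr2 was at 23.4 and 25.9 FPKM in wild type and at 39.8 and 30.8 FPKM in knockout (0.49 ± 0.15, adjusted p = 0.224). Pdcd1 was at 183 and 191 FPKM in wild type and at 200 and 184 FPKM in knockout (0.04 ± 0.16, adjusted p = 0.930). The knockout libraries were thus below wild type in Tox, above it in Havcr2 and interleaved with it in Pdcd1, where the sign also depended on the scaling (-0.49 after quantile normalization). Entpd1 was at 19.96 and 20.98 FPKM in wild type and at 25.7 and 20.7 FPKM in knockout (adjusted p = 0.668), with overlap. Of 25 tested genes of the terminal exhaustion list, 0 passed with limma (6 higher and 3 lower at an unadjusted p under 0.05) and 16 had a difference above 0, with a median of 0.14. Of 22 stem and progenitor genes, 0 passed (4 higher and 0 lower at an unadjusted p under 0.05) and 13 were above 0, with a median of 0.03. Among all genes tested, 15.1% had an unadjusted p under 0.05 and 42% had a difference above 0. Tcf7 was at 0.544 and 0.755 FPKM in wild type and at 0.228 and 0.376 FPKM in knockout (adjusted p = 0.422). Slamf6, another marker of stem-like cells, was at 0.593 and 0.392 FPKM in wild type and at 0.310 and 0.512 FPKM in knockout (adjusted p = 0.864), and both genes were near the level limit.

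Transcription factors of effector and exhausted cells had no call, and more of them had a difference below 0 than above it. Of 38 tested, 0 passed with limma (2 higher and 10 lower at an unadjusted p under 0.05), 11 had a difference above 0 (28.9%, beside 42% of all genes) and the median was -0.10, beside -0.05 over all genes. The list's median length, 4780.5 bases, lay near the lower bound of the highest length quartile (4494 bases). Genes of that quartile had a median of -0.14 and 23.6% above 0. Genes of the quartile below it had a median of -0.08 and 33.3% above 0. Stat3, which carries signals of several cytokines, was at 120 and 123 FPKM in wild type and at 82.0 and 70.7 FPKM in knockout (adjusted p = 0.167). Irf8 was at 54.3 and 58.2 FPKM in wild type and at 39.0 and 34.1 FPKM in knockout (adjusted p = 0.134). Klf2, a factor of quiescence that drives S1pr1, was at 5.70 and 4.83 FPKM in wild type and at 2.51 and 2.77 FPKM in knockout (adjusted p = 0.257). In all 3 the knockout libraries were the lower ones. Batf lay the other way, at 8.54 and 5.01 FPKM in wild type and at 13.1 and 12.2 FPKM in knockout (adjusted p = 0.192). Genes of the early response to the T cell receptor had 0 of 31 past the threshold and 11 above 0, beside 42% of all genes. At an unadjusted p under 0.05, 2 of them were higher and 9 lower, beside 15.1% of all genes in either direction. Nr4a1, of the early response list, was at 56.8 and 59.99 FPKM in wild type and at 43.4 and 35.6 FPKM in knockout (adjusted p = 0.179).

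Cell-cycle genes were mostly on the lower side in knockout. Of the 36 genes of the proliferation list, all tested, 0 passed with limma (1 higher and 8 lower at an unadjusted p under 0.05) and 4 had a difference above 0, with a median of -0.17, beside 42% of all genes above 0. In 17 both knockout libraries were below both wild-type ones, as they were in 28.1% of all genes. Of all genes tested, 15.1% had an unadjusted p under 0.05. Mki67, the marker Ki-67, was at 73.9 and 89.9 FPKM in wild type and at 54.1 and 62.2 FPKM in knockout (-0.48 ± 0.17, adjusted p = 0.273). Mcm2 of the replicative helicase was at 17.3 and 22.5 FPKM in wild type and at 11.8 and 12.9 FPKM in knockout (adjusted p = 0.171). Mcm4 was at 18.2 and 22.1 FPKM in wild type and at 14.8 and 15.3 FPKM in knockout (adjusted p = 0.248). Ccnb1 lay the other way, at 4.09 and 2.96 FPKM in wild type and at 5.37 and 5.61 FPKM in knockout (0.53 ± 0.16, adjusted p = 0.226). The list's median stayed below 0 in every scaling run, between -0.28 and -0.13. Its median length, 3018.5 bases, lay near the boundary of the 2 middle length quartiles, in which 44.2% and 33.3% of genes were above 0. In these bulk libraries, fewer cells of a kind and less RNA in each cell cannot be told apart.

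Ribosomal and respiratory-chain genes stood higher in knockout as lists, and so did short transcripts in general. Of 80 tested genes of cytosolic ribosomal proteins, 0 passed the limma test (20 higher and 1 lower at an unadjusted p under 0.05), 78 had a difference above 0 and the median was 0.43, but it was -0.05 after quantile normalization. Of 56 genes of oxidative phosphorylation, 0 passed (14 higher and 2 lower at an unadjusted p under 0.05), 49 were above 0 and the median was 0.28. Among all genes tested, 15.1% had an unadjusted p under 0.05 and 42% had a difference above 0. Over 9663 genes with a transcript length (98.8% of those tested), the rank correlation of the log2 difference with length was -0.37, where the points are genes of the same 4 libraries. The lowest quartile of length had a median difference of 0.14 and the highest had -0.14. The 2 wild-type libraries differed from each other by the same measure, with a correlation of 0.29 for library 2 minus library 1, and the 2 knockout libraries by -0.12. With the length trend removed the ribosomal median was 0.23 and that of oxidative phosphorylation 0.10. Without wild-type library 2 the medians were 0.23 and 0.15. The part of length and of that library in these list values was not tested further.

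Genes of the T cell receptor complex and its co-receptor differed among themselves and did not pass the test. Cd3d, a CD3 chain, was at 23.0 and 18.5 FPKM in wild type and at 39.7 and 37.0 FPKM in knockout (adjusted p = 0.0706). Cd3e, another CD3 chain, was at 196 and 212 FPKM in wild type and at 220 and 204 FPKM in knockout (0.06 ± 0.19, adjusted p = 0.907). Cd8b1, the CD8 beta chain, was at 88.5 and 76.1 FPKM in wild type and at 167 and 139 FPKM in knockout (adjusted p = 0.117). Cd8a, the alpha chain, was at 131 and 138 FPKM in wild type and at 166 and 129 FPKM in knockout (adjusted p = 0.774). The knockout libraries were thus above wild type in Cd3d and Cd8b1 and overlapped it in Cd3e and Cd8a, whose signs turned under scaling. Of 10 tested T cell and CD8 markers, 0 passed with limma (6 higher and 1 lower at an unadjusted p under 0.05) and 8 were above 0. Their median was 0.50, and -0.11 after quantile normalization, so no direction of this list held under every scaling. Among all genes tested, 15.1% had an unadjusted p under 0.05 and 42% had a difference above 0. Chemokine and cytokine ligands had 0 of 24 past the threshold (6 higher and 1 lower at an unadjusted p under 0.05), 18 above 0 and a median of 0.29. The median lengths of the ligand list and of the T cell marker list lay in the lowest length quartile. Genes of that quartile had a median of 0.14 and 66.7% above 0. Heat shock genes had 0 of 22 past it (0 higher and 1 lower at an unadjusted p under 0.05), 5 above 0 and a median of -0.16. The lists of tissue residency, chemokine receptors, cytokine receptors, costimulatory receptors, egress, glycolysis, T cell receptor signalling and the BCL2 family held 0 called genes. Their medians lay between -0.12 and 0.17. At an unadjusted p under 0.05, beside 15.1% of all genes, tissue residency had 2 higher and 5 lower of 16 tested. Egress had 2 and 3 of 16, costimulatory receptors 3 and 4 of 19, and cytokine receptors 2 and 4 of 22. T cell receptor signalling had 2 and 3 of 29, and chemokine receptors 2 and 0 of 11. Glycolysis had 3 and 0 of 19, and the BCL2 family 1 and 2 of 20. Among 16 integrin and adhesion genes, Pkp4 was the one that passed, and its call was lost in every rescaling run.

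**Figure D3:**
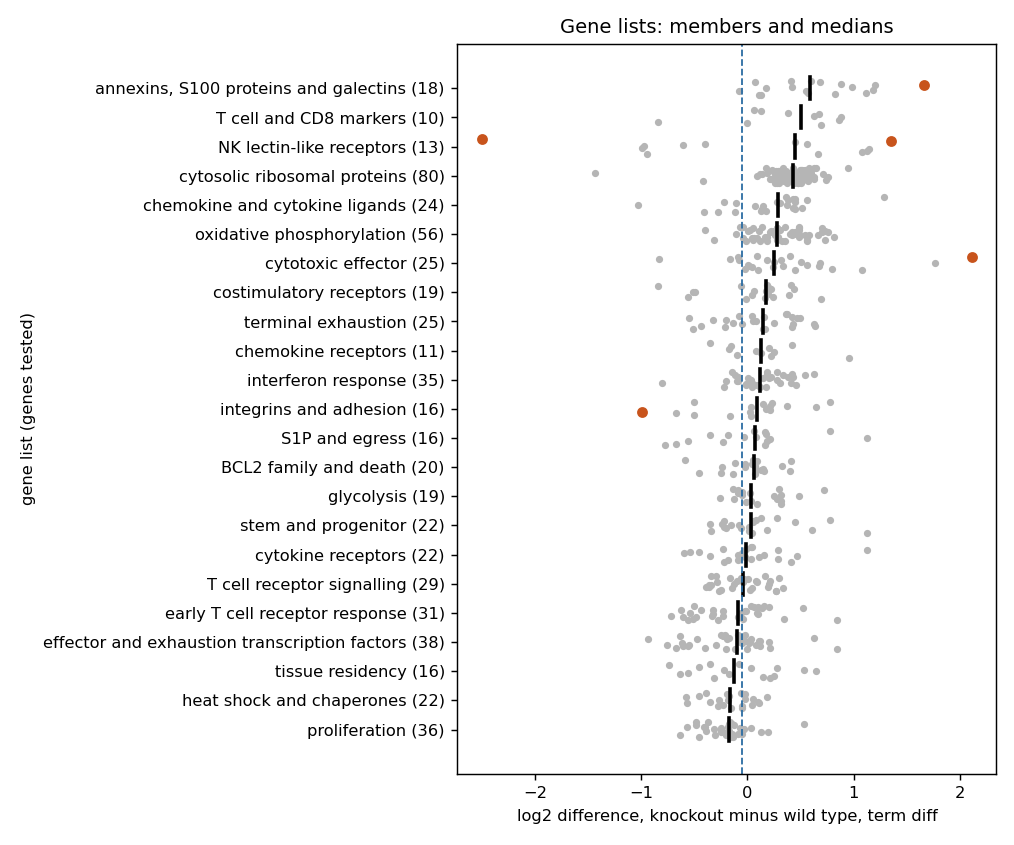
Log2 difference, knockout minus wild type, of each tested member of 23 gene lists in the term diff libraries, with the number tested in parentheses. Grey points are members, orange points are members past the threshold, black bars are list medians and the dashed line is the median of all genes tested (-0.05). Medians run from 0.58 for annexins, S100 proteins and galectins to -0.17 for proliferation, and few members of any list are called.

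Markers of other cell types were low apart from a few that T cells can share. Summed over the list, myeloid markers were at 52.5 and 49.4 FPKM in wild type and at 50.3 and 53.0 FPKM in knockout. Most of the sum was Fcer1g and Cst3, which lay in opposite directions, each without overlap. Fcer1g was at 29.8 and 27.1 FPKM in wild type and at 17.1 and 21.1 FPKM in knockout (adjusted p = 0.247 with limma). Cst3 was at 18.2 and 14.4 FPKM in wild type and at 27.8 and 23.7 FPKM in knockout (adjusted p = 0.257 with limma). H2-Aa was listed at 0 in all 4. Neutrophil markers summed to between 0.542 and 1.55 FPKM, and B cell markers to between 0.189 and 0.916 FPKM, with 0 genes of either list reaching the level limit and S100a8 and Retnlg at 0. Markers of CD4 and regulatory T cells summed to between 5.54 and 7.61 FPKM. NK cell markers, mainly Klre1, summed to 29.9 and 29.7 FPKM in wild type and 38.3 and 37.3 FPKM in knockout. Tumour and stroma markers were at 10.96 and 9.12 FPKM in wild type and at 12.2 and 11.7 FPKM in knockout. Erythroid markers summed to 2.54 FPKM or less. In these lists 0 genes were called with limma, and the part of such cells in the results was not tested.

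Genes that neighbour Cd69 were looked at together, because a targeted allele is bred with the chromosome around it. Within 10 Mb of Cd69, 106 other genes were tested, of which 1 rose and 2 fell (2.83%, beside 0.194% of all genes). They were Klrc2 at 0.389 Mb, Klra3 at 1.06 Mb and C530028O21Rik at -4.27 Mb from the start of Cd69. The median of the 106 differences was -0.04, close to that of all genes, but a median does not show changes in both directions. At an unadjusted p under 0.05, 18 of the 106 were higher and 12 lower, beside 15.1% of all genes in either direction. Both knockout libraries were above both wild-type ones in 31 of them and below in 32, beside 19.7% and 28.1% of all genes. The labels do not give the strain in which the allele was made, and no variant calls were used, so the part of the flanking chromosome in these 3 differences was not tested.

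**Figure D4:**
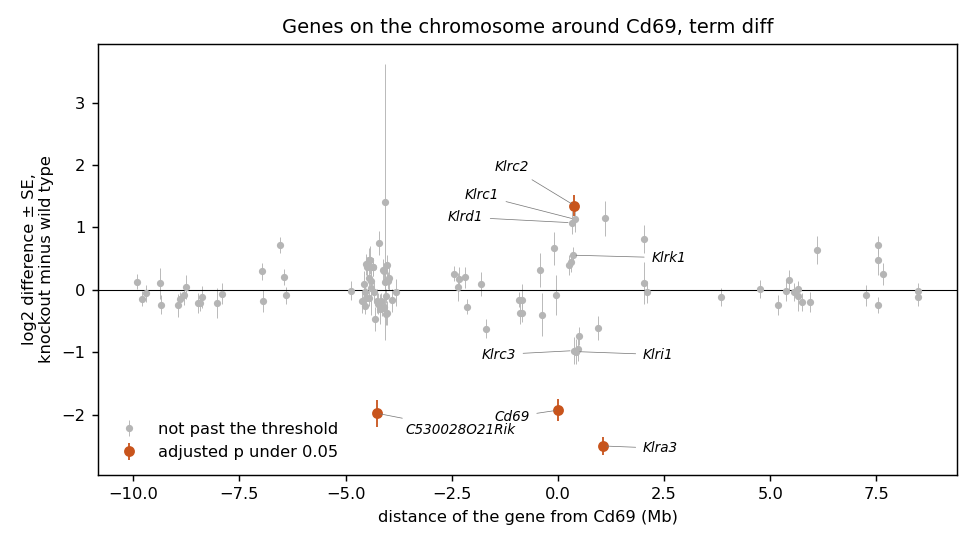
Log2 difference with its SE for Cd69 and the 106 genes tested within 10 Mb of it, by distance in Mb. Orange points are past the threshold. Cd69, Klra3 and C530028O21Rik lie below 0 and Klrc2 above it, with other Klr genes close to Cd69 on both sides of 0.

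The genotype difference was then set beside that in the stem-like subset, in which 15 of the same 9782 genes were called (0.153%). Of the 19 genes called in term diff, 8 were also called in stem-like with the same sign: Klra3, Cd69, G530011O06Rik, 2610005L07Rik, C530028O21Rik, Erdr1, Mmd and Pkp4. That is 42.1% of the term diff calls and 53.3% of the stem-like ones. The 2 comparisons share no library, although they share the estimate of the spread. In all, 17 of the 19 genes had the same sign in both subsets, and the share over all genes was not worked out. Of all genes tested, 42% had a difference above 0 in term diff and 62.6% in stem-like. Of the 36 proliferation genes, 4 were above 0 in term diff and 32 in stem-like, with medians of -0.17 and 0.19. That list was not tested for a difference between the subsets. Cd69 was lower by a difference of -2.58 in stem-like, and Klrc3, not called in term diff, had -2.24 there (adjusted p = 0.00955). Gzmd had 2.11 in term diff and 0.09 in stem-like, where it was at 0.631 FPKM or less in all 4 libraries. Tmprss6 had -1.60 in term diff and -0.53 in stem-like, where its wild-type level was 1.20 and 1.38 FPKM. Klrc2 had 1.35 and 0.68. The test of the difference between subsets (interaction of genotype and subset) called 3 of all genes tested (0.0307%), and the 19 genes were not among them, with adjusted p from 0.164 to 0.980, so none of them was shown to respond to the genotype in one subset more than in the other.

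**Figure D5:**
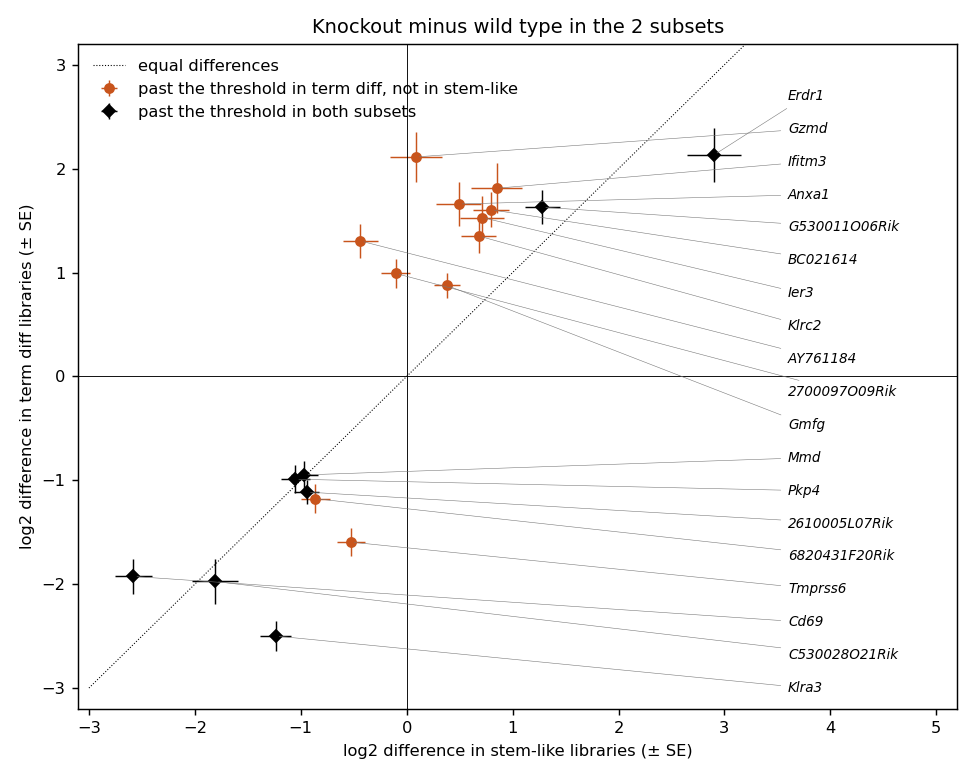
Log2 difference, knockout minus wild type, with its SE in the stem-like libraries (x axis) and in the term diff libraries (y axis) for the 19 genes past the threshold in term diff. Black diamonds passed in both subsets and the dotted line marks equal differences. Erdr1, Cd69, Klra3 and C530028O21Rik lie far from 0 on both axes, while Gzmd lies near 0 on the x axis.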

How the data were processed

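Total RNA of sorted AH1 tetramer-binding CD8+ T cells was sequenced in 8 libraries, and the gene levels were deposited as FPKM, 1 table of 23746 rows a library. Per the submitters' processing notes, the authors' tools were Cufflinks 2.2.1, TopHat 1.3.2, Bowtie2 2.3.4 and bcl2fastq 2.20, and the build was mm10. The annotation and the strand setting are not given in the sources used here. Rows were joined by symbol and locus, and 3 rows whose status was not OK were left out. Starts in the files count from 0 and are printed counting from 1. Fragments were estimated from the deposited FPKM interval, which gave a whole number within 0.05 in 63.6 to 65.5% of low rows, so they are approximations.

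Genes that reached 1 FPKM in 2 or more of the libraries were tested as log2(FPKM + 1) with limma 3.58.1 (trend, 2-sided, Benjamini-Hochberg, threshold 0.05), all 8 libraries as 4 group means, with 4 residual degrees of freedom. The script was tested on simulated data. Deviations of same-numbered libraries had correlations from -0.30 to 0.15, and no block was used. Those correlations cannot exclude a preparation shared by number within wild type, where the value was 0.15. Genes named were Cd69, up to 12 called genes or genes of smallest p a direction (mean of at least 5 FPKM in a group, no overlap), the called or 3 smallest-p members of each list and a fixed set. All other genes, among them called genes of lower level and members set beside a called gene, were named after their values were seen. The members and lists were chosen with earlier results of these data known.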

Additional observations from a re-analysis of the deposited data

Results flagged for a closer look

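In the test of the difference between subsets, 3 of 9782 genes passed (0.0307%), and each rests on so few fragments that no difference between the subsets can be read from it. Each value is the genotype difference of the term diff cells less that of the stem-like cells, on the log2(FPKM + 1) scale. Mir133a-2, a microRNA gene, had 5.89 (adjusted p = 7.57e-06 with limma). It was listed at 0 in all 4 term diff libraries and in the knockout stem-like ones, and rested on about 1 fragment in each wild-type stem-like library. Defb13, a defensin gene, had 2.01 (adjusted p = 0.0363) and the same pattern of about 1 fragment in each wild-type stem-like library and 0 elsewhere. Rnu73b, a small nuclear RNA gene, had -10.34 (adjusted p = 0.00549). Its 2 stem-like libraries of wild type were at 0 and the others between 385 and 1556 FPKM, from about 1 to 4 fragments. A single fragment of a very short gene makes a large FPKM, so these fitted values are given for completeness and are not folds.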

How the results depend on the processing

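The 19 called genes kept their directions, but as their groups did not overlap, leaving out libraries could not turn them. With 2 libraries a group the number of called genes moved with the processing. For term diff it was 19, and 122 with no filter on low values (108 of them under the filter), 3 with a limit of 5 FPKM, 9 after quantile normalization, 78 with robust empirical Bayes and 320 (160 higher, 160 lower) with voom on the estimated fragments, 18 of the 19 among them. For stem-like it was 15, and 5 with a pseudocount of 0.1, 29 with no filter, 9 with the 5 FPKM limit, 35 with robust empirical Bayes, 41 with voom and 24 without both wild-type libraries numbered 2. For the interaction it was 3, and 8 with a pseudocount of 5, 105 with no filter, 0 with voom (889 genes had an unadjusted p under 0.05 with limma), 1 with the length trend removed and 18 without both wild-type libraries numbered 2. With the replicate number as a block the counts were 6, 8 and 2, and the Cd69 difference stayed at -1.93. Same-numbered term diff libraries had a correlation of 0.09. Whether the number marks a shared preparation was not tested. Leaving out 1 library at a time gave 3 to 21 calls in term diff, 4 to 16 in stem-like and 2 to 11 for the interaction. Cd69 kept its direction in each setting run, with -2.07 to -1.78 over the libraries left out and -1.78 (adjusted p = 0.0878) without both wild-type libraries numbered 2. The removal of the length trend and the joint removal of the libraries numbered 2 were chosen after seeing the data.

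Signs turned for uncalled genes only, while the called genes had been picked for differences large beside their spread in these same values. Under quantile normalization Gzmb had -0.18, Cd3g -0.30, Cd8a -0.33, Cd3e -0.54 and Pdcd1 -0.49. Rescaled to an equal sum without small RNA, Cd8a had -0.0012, Cd3e -0.067 and Pdcd1 -0.087. With the length trend removed Slamf6 had 0.036, Cd3e -0.022, Cd40lg -0.058 and Gzma -0.090. Mir1901 had 0.19 with voom. Over the libraries left out in turn, the values ran from -0.043 to 0.65 in Cd68, -1.36 to 0.65 in Rnu73b, -0.18 to 0.022 in Slamf6, -0.28 to 0.41 in Cd40lg, -0.49 to 0.66 in Gzma, -0.060 to 0.31 in Cd8a, -0.021 to 0.097 in Pdcd1 and -0.23 to 0.0073 in Zbtb7b. Without both wild-type libraries numbered 2, Cd40lg had -0.28 and Gzma -0.49. The cause was not tested. Of 430 values of the called genes under alternatives, 244 stayed past the threshold and 186 did not. Depth limits genes below about 1 FPKM, where a value rests on few fragments.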
